A study of Mus musculus with 8 samples.

Results

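Cadherins, the cell adhesion molecule Epcam and the tight junction protein claudin-5 (Cldn5) were followed in mouse nephron progenitors of 4 labelled Smo genotypes. The 9 genes (Cdh1, Cdh2, Cdh3, Cdh4, Cdh6, Cdh11, Cdh16, Epcam and Cldn5) were picked by name from the 24539 genes of the count table as readouts of the passage from mesenchyme to epithelium. The choice was made with earlier results of the same libraries known, so the levels of the 9 genes and their differences between groups are given as a description, with no test. Of the 9, 8 were among the 13459 genes that passed the filter on low counts, and Cdh1 did not pass it.

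Cadherins are calcium-dependent adhesion molecules whose outer domains bind those of a neighbouring cell and whose inner tails hold catenins, which link them to actin. Nephron progenitors are mesenchymal cells that surround the tips of the branching ureteric bud. When they differentiate they condense into a vesicle and become epithelium, and in the course of this step the cells exchange the cadherins they carry. Smo is the membrane protein that passes on the hedgehog signal, and SmoM2 is a form of it that signals without ligand.

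Libraries of polyadenylated RNA were made from progenitors sorted from kidneys at E18.5 by fluorescence, with 2 libraries in each of 4 groups. The KO-labelled group was Smo c/c ; Six2GFPcre, in which both Smo alleles can be recombined, and the Het-labelled group was Smo c/+ ; Six2GFPcre. The WT-labelled group was Smo +/+ ; Six2GFPcre, and the SmoM2-labelled group carried Rosa26 SmoM2/+ on a Smo +/+ background, also with Six2GFPcre. Every group, the WT-labelled one included, thus carried the Six2GFPcre transgene, which drives a GFP and Cre fusion in Six2-expressing progenitors. Neither the strain of the mice nor whether a library came from 1 embryo or a pool was given in the sources used here, and p-values therefore measure the spread between these libraries, which may be technical.

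Total counts lay between 4422305 and 10305398 per library, and the KO-labelled libraries were the shallowest pair. Smo had 59 and 51 counts in the KO-labelled libraries, 108 and 141 in the Het-labelled, 3893 and 3442 in the WT-labelled, and 5915 and 5443 in the SmoM2-labelled libraries. The level in the Het-labelled pair, 19.2 ± 6.72 CPM (counts scaled to the library total; SD, n = 2), was 19.4-fold below the 369 ± 8.43 CPM of the WT-labelled pair (log2 difference -4.28, SE 0.20, edgeR adjusted p = 1.55e-06). The KO-labelled pair was at 12.1 ± 1.39 CPM (KO minus Het log2 difference -0.65, SE 0.23), a difference that missed the threshold with edgeR (adjusted p = 0.0906) and passed it with DESeq2 (0.0294) and with edgeR without the filter on low counts (0.00822). Leaving out 1 library moved this difference of Smo between -0.99 (without Het replicate 1) and -0.28 (without Het replicate 2). The Het-labelled libraries thus went against their label, and groups are named by label throughout. Xist and Y-linked counts showed both KO-labelled libraries as male and both Het-labelled libraries as female, whereas the other groups had 1 of each. The KO-labelled and Het-labelled groups therefore cannot be told apart from sex when compared with each other.

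Levels of different genes were compared per length, with the deposited RPKM, which divide the reads of a gene by its length and the library total. Among the 7 cadherins, Cdh11, Cdh2 and Cdh4 made up most of the signal in every library, and they were also ranked 1 to 3 among the 23 genes with a Cdh symbol in the WT-labelled libraries. Their joint share of the summed RPKM of the 7 cadherins was 90.8% and 90.6% in the KO-labelled libraries and between 94.4% and 97.0% in the other 6. Cdh6 was at 5.002% and 5.61% in the KO-labelled libraries and between 2.09% and 4.06% elsewhere, and Cdh3 was at 3.63% and 3.09% against 0.667% to 1.26%. Cdh16 and Cdh1 stayed below 0.6% in every library. The KO-labelled pair thus had a smaller share of the 3 abundant cadherins and larger shares of Cdh6 and Cdh3 than any other library. The summed RPKM itself was 116 and 153 in the KO-labelled pair, and each other library had 160.0 to 190.4.

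**Figure D1:**
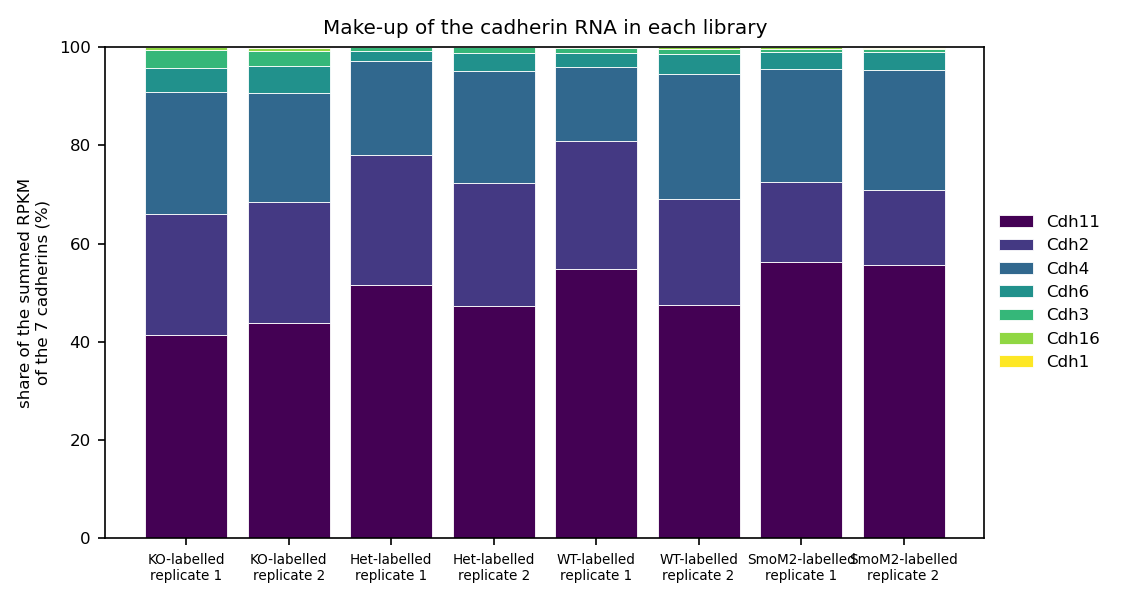
Share of the summed RPKM of the 7 cadherins (vertical axis, percent) taken by each cadherin in each of the 8 libraries (bars). The Cdh3 segment is widest in the KO-labelled pair (3.63% and 3.09%) and the Cdh2 segment is narrowest in the SmoM2-labelled pair (16.2% and 15.4%).

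Cdh11, a cadherin typical of mesenchyme, had the highest RPKM of the 7 cadherins in every library. Libraries labelled KO were at 291 and 398 CPM, the Het-labelled pair at 616 and 530.5 CPM, the WT-labelled pair at 570.1 and 519 CPM and the SmoM2-labelled pair at 576 and 646 CPM. Both KO-labelled libraries lay below the other 6, which lay between 519 and 646 CPM. The fitted log2 difference was -0.66 (SE 0.16) for KO minus WT and -0.73 (SE 0.16) for KO minus Het. Against the WT-labelled group it was 0.07 (SE 0.16) for the Het-labelled and 0.17 (SE 0.16) for the SmoM2-labelled group. With the trends over GC content and transcript length removed, the KO minus WT difference of Cdh11 was -0.43, over 1.5 times smaller.

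Cdh2, or N-cadherin, is the classical cadherin of neural and many mesenchymal cells and is also found in early nephron epithelium. Its KO-labelled levels were 163 and 213 CPM, with the Het-labelled pair at 299 and 266 CPM, the WT-labelled pair at 258 and 223 CPM and the SmoM2-labelled pair at 157 and 169.6 CPM. The Het-labelled pair was the highest and the WT-labelled pair came next, with no overlap, while the KO-labelled and SmoM2-labelled pairs lay below both and overlapped each other. The log2 difference from the WT-labelled group was -0.56 (SE 0.14) for SmoM2, -0.35 (SE 0.15) for KO and 0.24 (SE 0.14) for Het, and the KO minus Het difference was -0.59 (SE 0.15). Over all alternatives the KO minus WT difference of Cdh2 ranged from -0.56 (without KO replicate 2) to -0.18 (without KO replicate 1).

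The ratio of Cdh11 to Cdh2, both per length, set the SmoM2-labelled pair apart. It was 3.47 and 3.603 there, 2.09 and 2.21 in the WT-labelled, 1.95 and 1.89 in the Het-labelled, and 1.69 and 1.77 in the KO-labelled libraries. The 4 pairs were ordered without overlap, from the KO-labelled to the SmoM2-labelled group. The order was seen after the values were known and was not tested.

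Cdh4, or R-cadherin, is a classical cadherin of the developing nervous system and kidney. The KO-labelled pair was at 229.85 and 263 CPM, the Het-labelled pair at 301 and 336 CPM, the WT-labelled pair at 206 and 365 CPM and the SmoM2-labelled pair at 310.1 and 371 CPM. The WT-labelled pair spanned most of the range of all 8 libraries, so each other group overlapped it, and no order against it could be read. The log2 difference was -0.21 (SE 0.22) for KO minus WT and became 0.23 without WT replicate 2. For KO minus Het it was -0.37 (SE 0.22), and it became 0.17 with sex as a covariate.

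Cdh6 (K-cadherin) marks early nephron epithelium, in particular the cells that form the proximal tubule. Libraries labelled KO were at 56.2 and 81.4 CPM, the Het-labelled pair at 39.9 and 66.2 CPM, the WT-labelled pair at 48.4 and 70.8 CPM and the SmoM2-labelled pair at 55.6 and 69.0 CPM. All pairs of groups overlapped, and replicate 2 was above replicate 1 in each group. The log2 difference for KO minus WT was 0.21 (SE 0.26), and it was 0.67 with the GC and length trends removed, 0.47 without WT replicate 2 and -0.09 without KO replicate 2. The difference of Cdh6 for KO minus Het was 0.38 (SE 0.26), and its level, unlike its share of the cadherin sum, did not separate the KO-labelled pair from the others.

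Cdh3, or P-cadherin, is a classical cadherin of basal epithelia. Its KO-labelled levels were 20.1 and 22.2 CPM, with the Het-labelled pair at 7.48 and 11.2 CPM, the WT-labelled pair at 8.10 and 9.79 CPM and the SmoM2-labelled pair at 5.41 and 6.12 CPM. The KO-labelled pair stood above all others, the Het-labelled and WT-labelled pairs overlapped, and the SmoM2-labelled pair was the lowest. These levels rest on 91 and 102 counts in the KO-labelled libraries and on 53 to 90 counts in the others. The difference was 2.37-fold for KO over WT (log2 1.24, SE 0.25) and 2.28-fold for KO over Het (log2 1.19, SE 0.26). The SmoM2 minus WT log2 difference of Cdh3 was -0.63 (SE 0.26).

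Cdh1, or E-cadherin, is the cadherin of the ureteric bud, the collecting duct and the distal nephron, and its gene lies next to Cdh3 on chromosome 8. In mm10, Cdh3 spans chr8:106510891-106557297 and Cdh1 spans chr8:106603351-106670246 on the same strand, with 46.1 kb between them. Cdh1 had 2 and 10 counts in the KO-labelled, 0 and 0 in the Het-labelled, 5 and 7 in the WT-labelled, and 4 and 10 in the SmoM2-labelled libraries. It was therefore near the limit of detection in every group. The 0 counts of the Het-labelled libraries allow up to 3 counts each, or 0.401 and 0.509 CPM, a limit that covers counting error only. The 10 counts of Cdh1 in KO replicate 2 stand beside 102 of Cdh3, a gene of similar transcript length (4037 bases for Cdh3 and 4432 for Cdh1).

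Cdh16, or Ksp-cadherin, is a cadherin of differentiated kidney tubules. It had 11 and 12 counts in the KO-labelled, 4 and 0 in the Het-labelled, 9 and 19 in the WT-labelled, and 20 and 17 in the SmoM2-labelled libraries. The Het-labelled pair was the lowest and stood at or near the detection limit. Means were 2.52, 0.267, 1.45 and 2.00 CPM in the same order. At such counts the log2 difference for KO minus WT, 0.81, had an SE of 0.62, and an order among the other 3 groups could not be read.

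**Figure D2:**
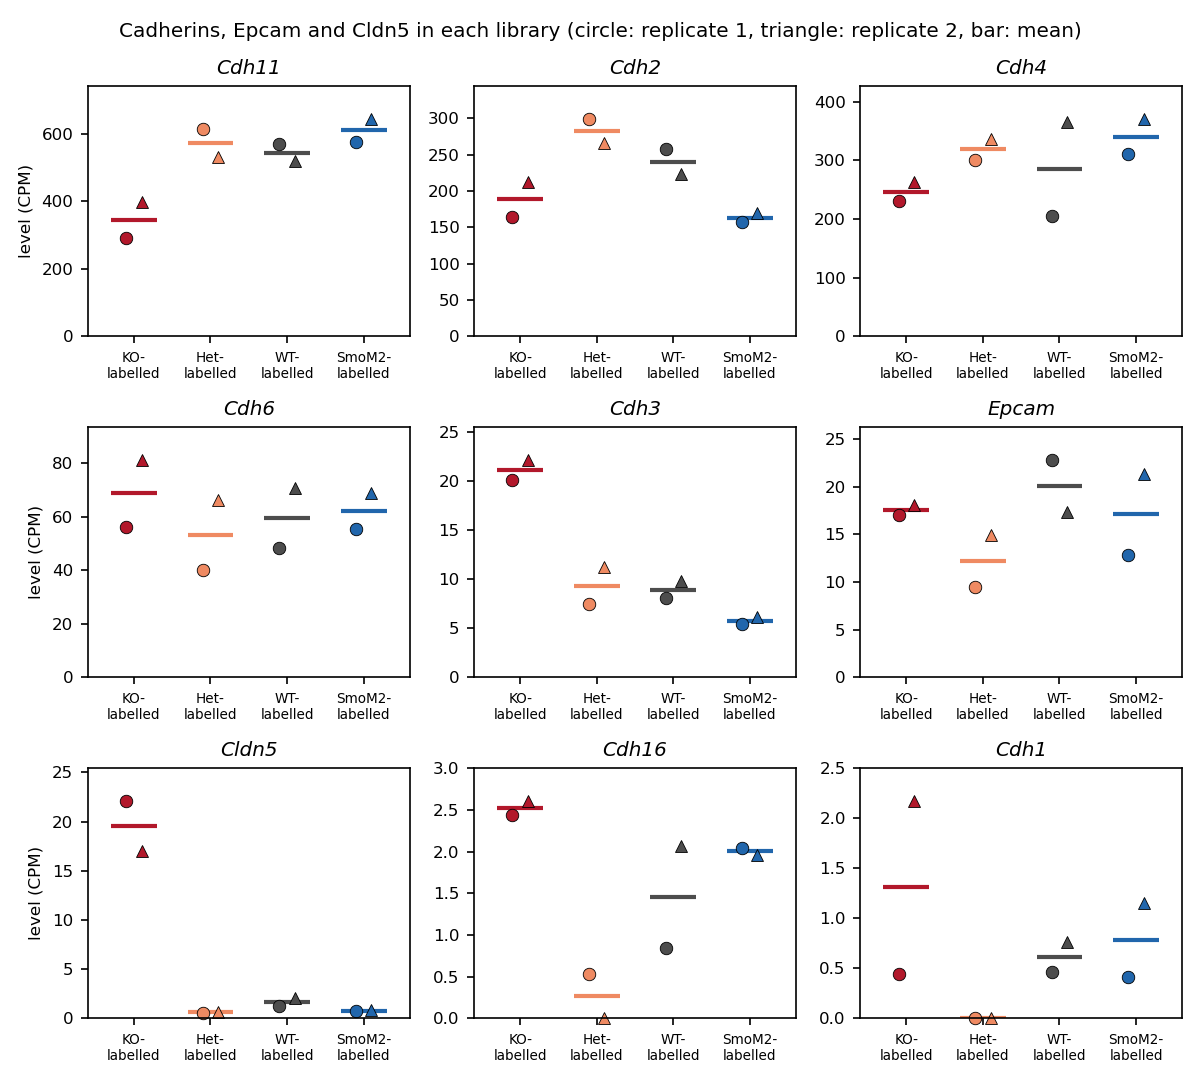
Level in CPM (vertical axes, linear, each starting at 0) of the 9 genes in the 4 labelled groups (horizontal axes), with replicate 1 as a circle, replicate 2 as a triangle and the group mean as a bar. The KO-labelled pair is the highest for Cdh3 (20.1 and 22.2 CPM) and Cldn5 (22.1 and 16.97 CPM) and the lowest for Cdh11 (291 and 398 CPM).

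Epcam and Cldn5 are the non-cadherin members, and their upstream sequences are shown because both genes are read as epithelial or endothelial markers and E-boxes for Snail and Zeb repressors are a known feature of epithelial promoters. The sequences are the 250 bases before each gene's start, from RefSeq on GRCm38.p6, written 5′ to 3′ on the strand of the gene, which is the plus strand for both. Capitals mark CACCTG on either strand, so that CAGGTG is the same motif read from the other strand. The Cldn5 window is chr16:18776597-18776846 and the Epcam window is chr17:87635729-87635978.
Cldn5: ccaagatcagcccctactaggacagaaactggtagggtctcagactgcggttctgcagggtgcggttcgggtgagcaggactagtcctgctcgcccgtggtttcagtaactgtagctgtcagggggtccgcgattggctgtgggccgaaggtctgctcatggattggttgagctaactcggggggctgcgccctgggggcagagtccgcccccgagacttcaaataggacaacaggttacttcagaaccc
Epcam: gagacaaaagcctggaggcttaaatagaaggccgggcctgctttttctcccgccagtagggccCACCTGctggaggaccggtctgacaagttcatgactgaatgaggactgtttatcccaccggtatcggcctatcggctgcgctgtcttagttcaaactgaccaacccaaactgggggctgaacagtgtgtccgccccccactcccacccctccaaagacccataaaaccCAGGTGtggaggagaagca
The Epcam window holds 2 matches that do not overlap, and the Cldn5 window holds none. RefSeq windows were matched for 3 of the 9 genes (Cdh6, Cldn5 and Epcam), and the Cdh6 window also holds no CACCTG. Of 32851 such windows, 17.2% hold the motif. A Gli motif, GACCACCCA, searched on both strands, was in none of the 3 windows and in 0.225% of all windows.

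Epcam is an adhesion molecule of epithelia, which in the kidney is strong in the ureteric bud and in nephron tubules. The KO-labelled pair was at 17.03 and 18.1 CPM, the Het-labelled pair at 9.48 and 14.9 CPM, the WT-labelled pair at 22.8 and 17.3 CPM and the SmoM2-labelled pair at 12.9 and 21.4 CPM. The Het-labelled pair lay below the WT-labelled and KO-labelled pairs, and the KO-labelled, WT-labelled and SmoM2-labelled pairs overlapped one another. The log2 difference was -0.73 (SE 0.29) for Het minus WT and -0.20 (SE 0.29) for KO minus WT. Leaving out 1 library moved the Het minus WT difference of Epcam between -1.10 (without Het replicate 2) and -0.46 (without Het replicate 1), and that of KO minus WT between -0.41 (without WT replicate 2) and 0.01 (without WT replicate 1).

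Cldn5 is best known as the claudin that seals the junctions of endothelial cells. It had 100 and 78 counts in the KO-labelled, 4 and 4 in the Het-labelled, 13 and 19 in the WT-labelled, and 7 and 7 in the SmoM2-labelled libraries. In CPM these are 22.1 and 16.97, then 0.534 and 0.679, then 1.21 and 2.07, and 0.715 and 0.808. Both KO-labelled libraries thus stood well above the other 6, although they were the shallowest. The difference was 11.9-fold for KO over WT (log2 3.58, SE 0.36) and 31.8-fold for KO over Het (log2 4.99, SE 0.44), the widest of the 8 tested genes in both comparisons. Over all alternatives the log2 difference of Cldn5 ranged from 3.16 to 3.96 for KO minus WT and from 4.78 to 5.54 for KO minus Het. The Het-labelled and SmoM2-labelled groups lay below the WT-labelled one, with log2 differences of -1.41 (SE 0.52) and -1.08 (SE 0.47) that rest on 4 to 19 counts per library. Without WT replicate 2 the SmoM2 minus WT difference of Cldn5 was -0.65.

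Cldn5 was set beside 12 other endothelial genes, since sorted cells can carry RNA of other types, and in bulk RNA fewer cells of a type and less RNA per cell cannot be told apart. In the KO-labelled libraries Pecam1 had 2 and 0 counts, Cdh5 had 3 and 2, Kdr had 1 and 0, and Flt1 had 0 and 2, while Sox17 and Sox18 were at 0. Tie1 had 8 and 2 counts, Tek 4 and 5, Emcn 4 and 2, and Esam 4 and 1. In these libraries, in which Cldn5 had 100 and 78 counts, each of the 10 markers other than Egfl7 and Plvap had at most 8. The summed level of the 12 was 36.3 to 54.9 CPM in the KO-labelled, 45.6 to 47.0 CPM in the Het-labelled, 24.4 to 30.5 CPM in the WT-labelled and 24.5 to 32.9 CPM in the SmoM2-labelled libraries. Most of it came from Egfl7 and Plvap, and the Het-labelled pair, in which Cldn5 was lowest, had a sum within the range of the KO-labelled pair. Of the 12, 3 passed the filter on low counts, Egfl7 and Plvap among them. Of these 3, 2 rose and 0 fell in KO against WT (edgeR adjusted p under 0.05), with a median log2 difference of 0.78. At least 1 of Egfl7 and Plvap thus rose in the comparison in which Cldn5 was higher. Over all genes tested, 11.6% rose and 11.4% fell. The part of the 12 genes in the level of Cldn5 was not tested.

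**Figure D3:**
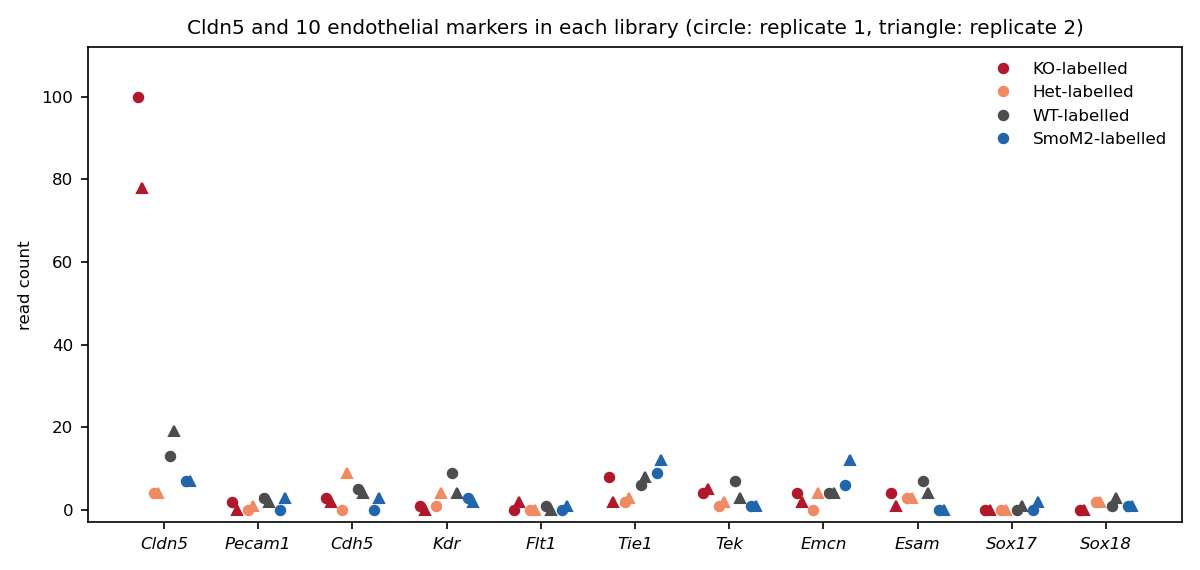
Read counts (vertical axis) of Cldn5 and 10 of the 12 endothelial markers (horizontal axis) in each library, coloured by labelled group, with replicate 1 as a circle and replicate 2 as a triangle; Egfl7 (72 to 149 counts) and Plvap (81 to 240 counts) are left out. The KO-labelled points of Cldn5 are at 100 and 78, and no plotted marker exceeds 12 counts in any library shown.

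Markers of other cell types moved with some of these levels. Summed over 16 genes of nephron epithelium, the level was 1404 to 1704 CPM in the KO-labelled libraries, 582 to 827 CPM in the Het-labelled, 528 to 701 CPM in the WT-labelled and 506 to 686 CPM in the SmoM2-labelled libraries. Over all genes tested, 11.6% rose and 11.4% fell in KO against WT (edgeR adjusted p under 0.05), and 13.1% and 12.2% in Het against WT. In the KO minus WT comparison 8 of the 11 tested nephron epithelium genes rose and 0 fell (edgeR adjusted p under 0.05). The KO-labelled pair that was high for Cdh3 and Cldn5 was thus also high for these genes, and their part in the levels of the 9 genes was not tested. Collecting duct genes summed to 28.5 to 29.0 CPM in the KO-labelled, 21.9 to 26.3 CPM in the Het-labelled, 33.0 to 34.7 CPM in the WT-labelled and 53.6 to 63.3 CPM in the SmoM2-labelled libraries. The KO-labelled pair had 4 of the 11 at 0 (Wnt9b, Aqp2, Tfap2b and Upk3a). So did the SmoM2-labelled pair (Wnt7b, Aqp2, Tfap2b and Upk3a), while the Het-labelled pair had 2 (Wnt9b and Tfap2b) and the WT-labelled pair 1 (Tfap2b). Of the collecting duct genes 3 were tested, and 2 fell in KO against WT. Stroma genes ranged from 94.4 to 624 CPM within the KO-labelled pair alone. Immediate early genes, which respond to handling, summed to 4097 to 5994 CPM in the KO-labelled pair and 7986 to 8108 CPM in the Het-labelled pair, against 2859 to 3003 CPM in the WT-labelled pair and 3276 to 4704 CPM in the SmoM2-labelled pair. Of the 8 tested, 5 rose in KO against WT and 7 in Het against WT, and 0 fell in either. Blood and immune genes summed to 27.4 to 61.7 CPM, 62.3 to 70.7 CPM, 28.6 to 34.3 CPM and 32.0 to 33.4 CPM in the order KO, Het, WT and SmoM2. Of their 6 tested genes 3 rose and 1 fell in KO against WT (median log2 difference 2.55), and 3 rose and 0 fell in Het against WT (2.09). Nephron progenitor genes had 4 of 10 higher and 1 lower in KO against WT and 5 higher and 1 lower in Het against WT, and podocyte genes had 1 of 4 higher and 1 lower in KO against WT. Their part was not tested.

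Transcript length also moved with the differences. Over all tested genes the median KO minus WT log2 difference was 0.28 for genes under 2000 bases, 0.06 from 2000 to below 4000, -0.19 from 4000 to below 8000 and -0.46 from 8000 upwards, and for KO minus Het it went from 0.24 to -0.28. Cldn5 (1416 bases) is in the shortest class and Cdh11 (5116) and Cdh2 (4843) in a class whose median is below 0, so their directions match those of their classes. Cdh16 (3318 bases, 0.81) and Cdh4 (6730, -0.21) also have the sign of their class in KO minus WT. Cdh3 (4037 bases), Cdh6 (8169) and Epcam (2061) lie against the medians of theirs. The part of length in these levels was not tested beyond the alternative that removes its trend.

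Of the 8 genes that passed the filter, the libraries of the groups did not overlap for 5 in KO against WT, 4 in Het against WT, 4 in SmoM2 against WT and 7 in KO against Het. Over all genes tested, 62% did not overlap in KO against WT, 66.9% in Het against WT, 35.8% in SmoM2 against WT and 56.9% in KO against Het. The median log2 difference over the 8 genes was 0.01, -0.06, -0.09 and 0.46 in the same order, beside 0.03, -0.02, 0.00 and 0.02 over all genes tested. The first 3 comparisons share the WT-labelled libraries and are not independent of each other.

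**Figure D4:**
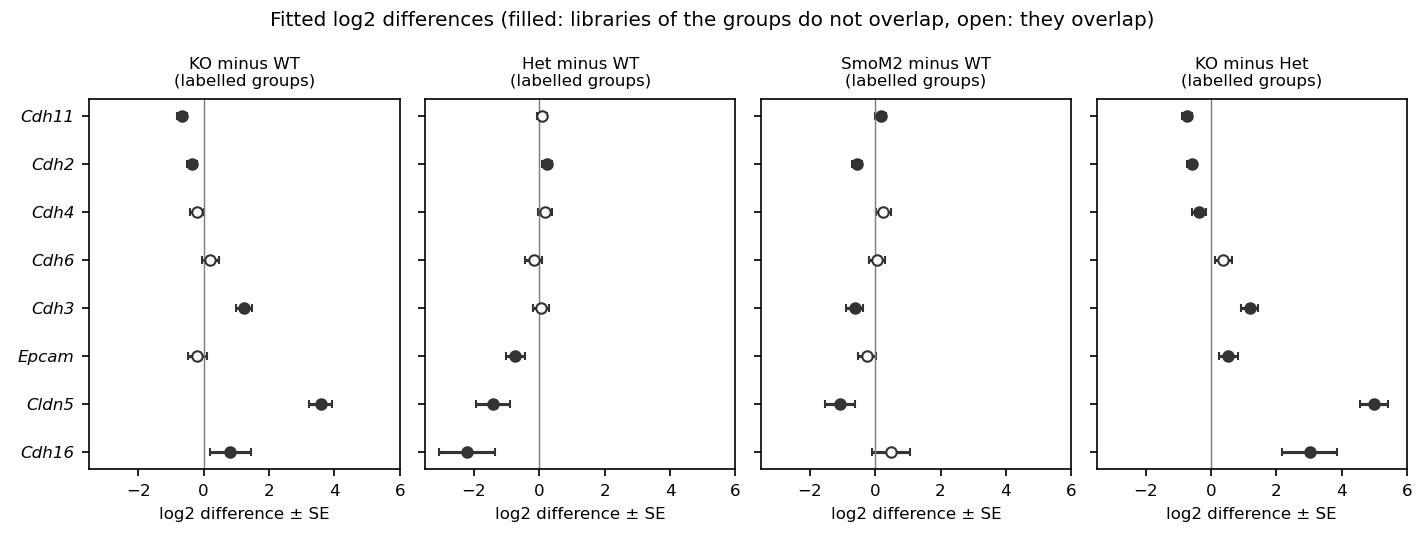
Fitted log2 difference (horizontal axes, points with bars of 1 SE) of the 8 tested genes in the 4 comparisons; filled points mark genes whose libraries do not overlap between the groups. Cldn5 lies farthest to the right in KO minus WT (3.58) and KO minus Het (4.99), and Cdh11 lies at -0.66 and -0.73.

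The wider junction programme was read from 7 lists with 116 genes in all, of which 115 were in the table and 75 were tested. In KO against WT, 16 of the 75 (21.3%) passed the threshold, 7 higher and 9 lower, beside 23% of all genes tested (11.6% higher and 11.4% lower). With DESeq2 the split was 6 higher and 12 lower. The median log2 difference of the 75 was 0.03, the same as over all genes.

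Among other cadherins, 4 of 12 tested genes changed in KO against WT. The giant cadherins Fat1, Fat3 and Fat4, which act in planar polarity and growth control, fell by 1.39 (SE 0.20), 1.37 (SE 0.23) and 1.16 (SE 0.25) on the log2 scale, with edgeR adjusted p of 0.00113, 0.00215 and 0.00811. Their transcripts are long, at 14627, 18468 and 16107 bases, and the call of Fat4 was lost with the GC and length trends removed (edgeR adjusted p = 0.0701) and without KO replicate 1 (0.0810). With these trends removed, the differences of Fat1 and Fat3 were -0.91 and -0.70, over 1.5 times smaller, and kept their calls (edgeR adjusted p = 0.00545 and 0.0306). Cdh24, a type II cadherin, rose from 45.8 and 48.2 to 72.1 and 70.3 CPM (log2 difference 0.60, SE 0.12, edgeR adjusted p = 0.00686), a call lost without WT replicate 2 (adjusted p = 0.0548) and with the GC and length trends removed (0.0958).

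Of 12 tested catenins and adherens junction partners, 1 rose and 3 fell in KO against WT. Nectin2, an immunoglobulin-like adhesion molecule, rose (log2 0.82, SE 0.13, edgeR adjusted p = 0.00219), while Afdn, the afadin that binds nectins to actin, fell by 0.85 (SE 0.12, edgeR adjusted p = 0.00108) and by 0.53 with the GC and length trends removed (0.0122). The actin linker Vcl (-0.56) and p120-catenin Ctnnd1 (-0.59) also fell, but without KO replicate 1 their edgeR adjusted p were 0.140 and 0.134, and neither call held with the GC and length trends removed. The call of Vcl was also lost without WT replicate 2 (log2 difference -0.46) and with sex as a covariate (edgeR adjusted p = 0.0509). That of Ctnnd1 was also lost without WT replicate 1 (log2 difference -0.49). Beta-catenin, Ctnnb1, the tail partner of classical cadherins, had a log2 difference of -0.32 (SE 0.12) that missed the threshold (edgeR adjusted p = 0.0788).

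In the tight junction list 1 of 13 tested genes passed in KO against WT: Cldn11 fell by 1.67 (SE 0.27, edgeR adjusted p = 0.00191), from 17.2 ± 1.74 to 5.39 ± 2.08 CPM (SD, n = 2). The scaffold Tjp1 had a log2 difference of -0.43 (SE 0.16, edgeR adjusted p = 0.0777). None of the 8 tested desmosome and keratin genes passed with edgeR. An unadjusted edgeR p under 0.05 was reached by 2 of the 8, beside 5004 of the 13459 genes tested. Among 13 polarity genes Pard6a (log2 1.11) and Crb2, which organises the apical membrane (log2 1.05, SE 0.23, edgeR adjusted p = 0.00977), rose and none fell. The call of Pard6a was lost without KO replicate 1 (edgeR adjusted p = 0.152), without WT replicate 2 (0.106) and with the GC and length trends removed (0.0968).

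Of 9 tested epithelial regulators 3 rose and none fell in KO against WT. Spint2, an inhibitor of membrane serine proteases, stood at 101 and 95.9 CPM in the KO-labelled libraries against 34.7 and 30.1 CPM in the WT-labelled (log2 1.60, SE 0.13, edgeR adjusted p = 7.18e-05). The splicing regulator Esrp2 rose from 0.505 to 2.19 CPM, a call lost with DESeq2, with sex as a covariate, and without any single KO-labelled or WT-labelled library or Het replicate 2 (edgeR adjusted p up to 0.139). Of 8 mesenchymal regulators 2 fell: the repressor Zeb2, from 20.5 and 33.2 to 7.96 and 8.05 CPM (log2 -1.74, SE 0.26, edgeR adjusted p = 0.00120), and Fn1 (-0.65), whose call was lost without KO replicate 1 (0.175), KO replicate 2 (0.0655) or WT replicate 2 (0.177), with sex as a covariate and with the GC and length trends removed. The genes that follow are outside the naming rule and were picked after their values were seen. Snai1 (log2 difference -0.91, edgeR adjusted p = 0.0642) and Tcf4 (-0.32, 0.0720) lay below the WT-labelled level and missed the threshold. Snai2 (0.86, 0.0922) and vimentin, Vim (0.40, 0.110), lay above it and missed the threshold as well.

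In Het against WT, 18 of the 75 list genes (24%) passed, 8 higher and 10 lower, beside 25.3% of all genes (13.1% higher and 12.2% lower). Spint2 (log2 1.25, SE 0.13, edgeR adjusted p = 0.000154), Nectin2 (1.31, SE 0.13, edgeR adjusted p = 0.000134) and Cdh24 (1.35, SE 0.12, edgeR adjusted p = 9.24e-05) rose, and Zeb2 (-1.03), Cldn11 (-1.81) and Afdn (-0.62) fell. The 6 genes were also called with the same sign in KO against WT, with which this comparison shares its WT-labelled libraries. Dchs1 (0.64), the binding partner of Fat4, and the basolateral polarity genes Scrib (0.69) and Llgl1 (0.58) rose, as did Nectin1 (0.73) and Cldn9 (0.78). Dsp, the desmosome linker, had 2 and 4 counts against 27 and 29, and Krt19, a simple epithelial keratin, had 0 and 1 against 11 and 14 counts, and both fell (edgeR adjusted p = 0.0121 and 0.0233). Cldn1 (-1.69), Fat2 (-2.05), Pard6g (-0.52), Mpp5 (-0.55) and Tcf4 (-0.54) also fell. Without Het replicate 1 the calls of Cldn1, Cldn9, Dsp, Fat2, Krt19, Llgl1, Mpp5, Nectin1, Pard6g and Tcf4 were lost, with edgeR adjusted p from 0.0587 for Tcf4 to 0.189 for Fat2. Without Het replicate 2 those of Cldn1, Cldn9, Krt19, Mpp5, Pard6g and Tcf4 were lost (0.0524 for Tcf4 to 0.211 for Pard6g). Without WT replicate 1 those of Cldn1, Fat2, Mpp5, Nectin1 and Pard6g were lost (0.0539 for Nectin1 to 0.137 for Mpp5), and without WT replicate 2 those of Cldn9, at a difference of 0.37 (0.227), Fat2 (0.0703), Krt19 (0.0867) and Pard6g (0.142). With the GC and length trends removed, Mpp5 was at -0.22 (0.302), Tcf4 at -0.20 (0.342), Llgl1 at 0.29 (0.0955), Nectin1 at 0.42 (0.0848) and Cldn9 at 0.52 (0.172), all lost, as were Cldn1 (0.0542) and Pard6g (0.0527). Scrib at 0.32 (0.0437) and Dchs1 at 0.40 (0.0178) kept their calls there, at differences over 1.5 times smaller. The call of Cldn9 was also lost without either KO-labelled library (0.0521 and 0.0518) and with totals implied by the RPKM, those of Krt19 and Pard6g with DESeq2, and those of Cldn1 and Fat2 with sex as a covariate, and that of Fat2 with only the 4 libraries compared. The call of Zeb2 was lost without Het replicate 2 (0.0593), without WT replicate 2 (0.0607) and with the GC and length trends removed (0.0615).

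In SmoM2 against WT, none of the 75 list genes passed with edgeR, where 0.223% of all genes tested did. At an unadjusted edgeR p under 0.05 there were 17 of the 75, beside 1036 of the 13459 genes tested. DESeq2 called 1 of the list genes, beside 79 of all genes. The 4 genes nearest to the threshold, picked after their values were seen, were Crb2 (log2 difference -1.16, edgeR adjusted p = 0.125), Nectin3 (0.66, 0.132), Twist1 (2.09, 0.154) and Cldn11 (0.90, 0.164).

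Between the KO-labelled and Het-labelled groups, 11 of the 75 list genes (14.7%) passed, 3 higher and 8 lower, beside 9.43% of all genes (4.33% higher and 5.1% lower). Over all genes, the split of 583 higher and 686 lower became 937 and 511 with totals implied by the RPKM. Those that rose included Dsp (log2 2.56, SE 0.68, edgeR adjusted p = 0.0374) and Grhl1, a grainyhead-like epithelial factor (1.35, SE 0.37, edgeR adjusted p = 0.0404). Of the other cadherins 5 of 12 fell: Fat3 (-1.68), Dchs1 (-0.95), Fat1 (-0.92) and, outside the naming rule and picked after their values were seen, Cdh24 (-0.75) and Celsr2 (-0.50). Nectin1 (-0.81), Nectin2 (-0.50) and Scrib (-0.65) fell as well. Fat3 kept its call under all 16 alternatives. The calls of the other 7 genes named here by the rule were each lost under at least 1 of theirs, among them those of Dsp (edgeR adjusted p = 0.237), Grhl1 (0.268), Fat1 (0.112), Nectin1 (0.183), Nectin2 (0.166) and Scrib (0.107) without Het replicate 1. With the GC and length trends removed all 7 were lost: Dchs1 was at -0.41 (0.0583), Fat1 at -0.46 (0.150), Nectin1 at -0.49 (0.140), Nectin2 at -0.32 (0.225), Scrib at -0.29 (0.145), Dsp at 2.89 (0.0558) and Grhl1 at 1.35 (0.0767). With sex as a covariate the calls of Fat1 (edgeR adjusted p = 0.106), Grhl1 (0.0653) and Nectin1 (0.0880) were lost. That of Nectin2 was lost with totals implied by the RPKM (0.0778), and that of Grhl1 with only the 4 libraries compared (0.0542). Both KO-labelled libraries are male and both Het-labelled ones female, so group and sex cannot be told apart within this comparison. The sex covariate therefore rests on the WT-labelled and SmoM2-labelled pairs, in which replicate 1 is male and replicate 2 female. Leaving out other libraries also ended calls: KO replicate 1 or 2 those of Dsp, Grhl1, Nectin1 and Nectin2, KO replicate 1 that of Fat1, and Het replicate 2 those of Dsp, Grhl1, Fat1 and Nectin2, with edgeR adjusted p of 0.0521 to 0.165. Leaving out either SmoM2-labelled library ended the call of Grhl1 (0.0530 and 0.0539).

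**Figure D5:**
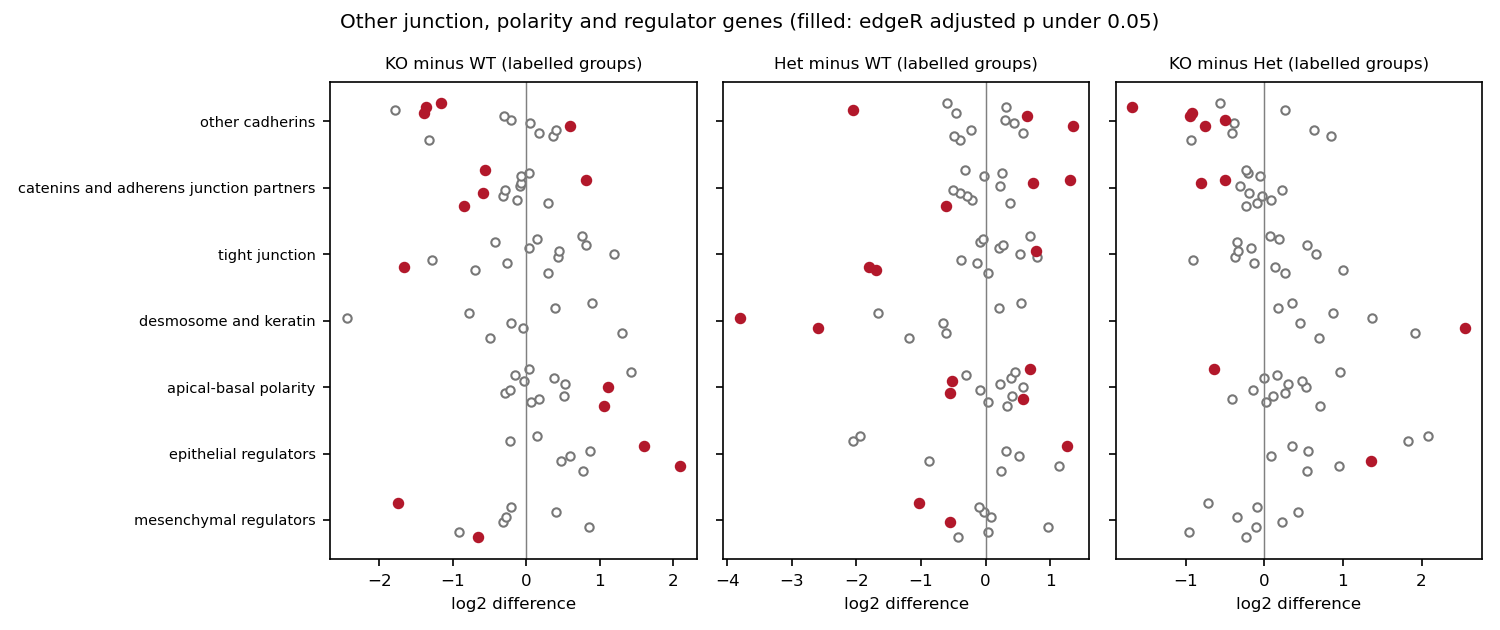
Fitted log2 difference (horizontal axes) of all but 1 of the 75 tested genes of the 7 lists (rows) in 3 comparisons, with filled points for edgeR adjusted p under 0.05. Filled points lie on both sides of 0 in KO minus WT, among them Spint2 (1.60) to the right and Zeb2 (-1.74) and Cldn11 (-1.67) to the left.

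Over the 8 libraries, the tested genes whose log2 CPM was most alike were found for each of the 7 genes with an average log2 CPM of at least 1, among 12451 candidates. The 8 points share their groups, depth and sex, and with 8 libraries a high value is easily reached by one gene among so many. For Cdh11 the closest was Pcyox1 (Pearson's r 0.992), then N4bp2 (0.981) and Casc3 (0.976). For Cldn5 they were Etfa (0.985), Nme2 (0.983) and Trmt10c (0.980), and for Cdh3 they were Apba2 (0.986), Trim16 (0.977) and Sorcs3 (0.974). For Cdh2 the closest were Gxylt2 (0.972), Bora (0.971) and Man2b2 (0.968), for Cdh4 Ergic1 (0.945), E2f8 (0.934) and Rpn1 (0.932), and for Cdh6 Notum (0.963), Sdk2 (0.960) and Gucy1b3 (0.927). Epcam was most like Zfand4 (0.995), Mir703 (0.963) and Tap2 (0.944). None of these genes was a member of the 7 lists.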

How the data were processed

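RNA-seq of 8 libraries was analysed from one deposited table with read counts per gene, RPKM values and gene lengths. Per the submitters' processing notes, reads were aligned with STAR to mm10 and counted with featureCounts (Subread); versions, annotation and strand setting were not given in the sources used here. The authors' deposited counts were used as given for all tests, and RPKM, as deposited by the authors, for levels between genes. Listed counts were 81.1% to 83.3% of the totals implied by the RPKM.

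Groups and replicate numbers came from the labels. Genes were filtered with filterByExpr, scaled by TMM and fitted over all 8 libraries with 1 mean per group by edgeR 4.0.16 (quasi-likelihood, R 4.3.3), with Benjamini-Hochberg adjustment over 13459 genes and a threshold of 0.05. CPM use TMM-scaled totals. Biological coefficient of variation was 13.5%. The test was checked on counts simulated with the fitted spread and without trends over length or sex, so the check does not cover such trends. The 9 genes and the lists were chosen with earlier results of these data known. Named list genes are up to 3 per direction, list and comparison with the largest log2 difference among those past the threshold with average log2 CPM of at least 0. Alternatives were DESeq2 1.42.0, totals implied by the RPKM, no filter or at least 10 counts in every library, only the libraries compared, sex as a covariate, the replicate block, each library left out and, chosen after seeing the data, removal of GC and length trends (GC content matched for 97.9% of genes). Promoters are RefSeq's on GRCm38.p6. For 1 gene of the lists, which stays in the counts, values are not reported here.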

Additional observations from a re-analysis of the deposited data

How the results depend on the processing

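Of the member differences under all alternatives, 475 moved by less than the spread, the pooled SD of the 2 groups, and 28 by more. Leaving out 1 of the 2 libraries of a group moves its mean by about this spread at most. The 475 therefore say little about those alternatives. Of the results for Smo and the named list genes, 634 kept their side of the threshold and 103 calls of list genes were lost. A further 6 were gained, all of Smo (2 in KO minus Het and 4 in SmoM2 minus WT). Genes called in SmoM2 minus WT (30) were 79 with DESeq2, 356 without a filter, 9 with only the 4 libraries compared, 54 with sex as a covariate and 19 with GC and length trends removed. Those in KO minus Het (1269) were 2217 without a filter and 335 with the trends removed. List genes called were 20 and 4 there, and in SmoM2 minus WT 1 with DESeq2 and 8 without a filter. Totals implied by the RPKM turned the KO minus Het split from 583 higher and 686 lower to 937 and 511, and DESeq2 to 517 and 929. Leaving out a library gave 1305 to 2924 genes for KO minus WT, 1411 to 3616 for Het minus WT, 8 to 81 for SmoM2 minus WT and 36 (without Het replicate 1) to 1472 for KO minus Het. List genes were then 10 (without KO replicate 1) to 19, 9 (without Het replicate 1; 11 without Het replicate 2) to 19, 0 to 2 (without WT replicate 2), and 2 (without Het replicate 1; 5 without KO replicate 1 and 6 without Het replicate 2) to 14. Causes were not tested. The replicate numbers were not taken to pair libraries: correlations of their deviations were -0.06 to 0.10, but 0.39 for WT with SmoM2, in both of which replicate 1 is male and replicate 2 female. The replicate block gave 3342, 3685, 54 and 1527 genes and 18, 21, 1 and 12 list genes in the order KO minus WT, Het minus WT, SmoM2 minus WT and KO minus Het. With 4422305 counts in the shallowest library, Cdh1 and Cdh16 were near the detection limit.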
